A study of Arabidopsis thaliana with 6 samples.

Results

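Expansins and xyloglucan endotransglucosylase/hydrolases (XTHs) are families of cell wall loosening proteins, and their transcript levels were compared in leaves of *Arabidopsis thaliana* after treatment with 2,6-dichloroisonicotinic acid (INA), a synthetic mimic of the defense hormone salicylic acid. Members were all loci whose deposited description contained the words expansin or xyloglucan endotransgl, which gave 41 of the 22183 loci listed. Of these, 19 belonged to the expansin superfamily (14 alpha-expansins EXPA, 2 beta-expansins EXPB, 2 expansin-like A genes EXLA and 1 expansin-like B gene EXLB) and 22 were XTH genes. RNA was sequenced from 4 conditions: the double mutant *hac1-2 hac5-2* (*hac1/5*) with INA, the single mutant *npr1-1* with INA, wild-type Columbia (Col) with INA, and Col with water. *HAC1* and *HAC5* are histone acetyltransferases of the CBP/p300 class, and *NPR1* is the coactivator through which salicylic acid acts on most of its target genes. Both mutants are in the Col background, the plants were 4 weeks old and grown in short days, and leaves were taken 12 h after spraying with 300 µM INA or with water. Mutants sprayed with water were not analysed here. A mutant's own level and its response to INA therefore cannot be told apart in the comparisons of mutants.

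Plant cell walls are cellulose microfibrils held in a matrix of xyloglucan, pectin and protein. Expansins loosen the contacts between cellulose and matrix polysaccharides without cutting them, mostly at acid pH, and let turgor stretch the wall. XTHs cut the xyloglucan backbone and either join the cut end to another chain (endotransglucosylase activity) or to water (hydrolase activity), so they can loosen a wall or strengthen it. In leaves both families are best known from growing cells, and single XTH genes also respond to touch, hormones and senescence.

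Each condition was represented by 1 library, made from the combined RNA of 3 experiments, so no difference has a replicate check. The test used below is binomial and exact. It takes the reads of 2 libraries, compares those libraries and not the conditions, and its intervals cover counting error only. Reads on gene models came to between 6698569 and 7146973 a library, and 3 reads, to which lower counts were set for log2 ratios but not for the other ratios and intervals, correspond to between 0.420 and 0.448 CPM (reads scaled to the sum of their library). In the mutated genes, *HAC5* had 2 reads in the *hac1/5*+INA library, against 248 in *npr1-1*+INA, 122 in Col+INA and 272 in Col. *HAC1* had 25, 63, 28 and 69 reads in the same order, so its level did not set the double mutant apart from Col+INA, and the *npr1-1* allele is a missense change that read counts cannot check. Leaf markers were high in every library but not level. In RPKM (CPM per kilobase of gene model), the Rubisco small subunit gene *RBCS1A* stood at 1388 in *hac1/5*+INA, 2472 in *npr1-1*+INA, 1516 in Col+INA and 2153 in Col. The chlorophyll-binding protein gene *CAB3* stood at 3217, 1939, 958 and 2924 in the same order, *LHCB2.1* at 2787, 1819, 1682 and 2755, and the Rubisco activase gene *RCA* at 211, 253, 227 and 288. The root hair gene *COBL9*, the flower organ gene *AG* and the pollen marker had at most 1 read in any library, and *CASP1* and *AP3* were not among the loci listed. The root gene *PYK10* had 0 reads in *hac1/5*+INA, 20 in *npr1-1*+INA, 4 in Col+INA and 16 in Col, an order of libraries also seen in members below, and the part of such differences in the results was not tested. In bulk leaves, fewer cells of a type and less RNA per cell cannot be told apart.

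All 41 members together took 0.0425% of the reads in *hac1/5*+INA, 0.149% in *npr1-1*+INA, 0.117% in Col+INA and 0.224% in Col. In CPM this was 425 in *hac1/5*+INA, 1486 in *npr1-1*+INA, 1170 in Col+INA and 2242 in Col. The summed level was thus 1.92-fold below Col in Col+INA, 2.76-fold below Col+INA in *hac1/5*+INA and 1.27 times as high in *npr1-1*+INA as in Col+INA. The sum rests on few genes: *XTH4*, *XTH6* and *XTH7* made up 28.2% of it in *hac1/5*+INA, 46.1% in *npr1-1*+INA, 35% in Col+INA and 61.0% in Col. In Col+INA the largest single part came from *XTH24*, with 1983 of 8365 reads. That gene had 161 reads in *hac1/5*+INA, 191 in *npr1-1*+INA and 579 in Col. Of the 41 members, 36 had at least 1 read in *hac1/5*+INA, 41 in *npr1-1*+INA, 40 in Col+INA and 39 in Col. Among the 17 members with at least 100 reads in a library, the *hac1/5*+INA library was the lowest of the 4 for 13 (76.5%), against 18.8% of the 9082 loci at this read level, although for *EXPA15*, *EXPA16* and *XTH19* its distance to Col+INA lay within counting error. Col was the highest for 9 of the 17 (52.9%), against 15.7% of those loci.

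A gene was called where the adjusted p (false discovery rate, FDR) of the exact test was at most 0.01 and CPM differed by at least 2-fold. In wild type, more of these genes were called lower than higher with INA. Of the 40 members tested in Col+INA over Col, 6 were called higher (15.0%), beside 13.9% of all tested loci, and 16 were called lower (40.0%), beside 8.49% of all loci. The median log2 ratio was -1.23 over the members and -0.05 over all loci. In *npr1-1*+INA over Col+INA the balance lay the other way: 13 of 41 members were called higher (31.7%), beside 10.7% of all loci, and 5 lower (12.2%), beside 13.1%. The median log2 ratio was 0.60 over the members and 0.09 over all loci. Among those with a mean of at least 10 reads it was 0.88 and -0.07. In *hac1/5*+INA over Col+INA, 3 members were called higher (7.32%), beside 3.81% of all loci, and 12 lower (29.3%), beside 5.79%. The median was -0.58 over the members and 0.04 over all loci, and -0.69 and 0.13 with a mean of at least 10 reads. The medians of -0.05, 0.09 and 0.04 over all loci equal the log2 ratio of a locus with at most 3 reads in both libraries. Both comparisons of mutants use the Col+INA library that is also the INA arm of the wild type, so opposite signs in Col+INA over Col and in a mutant over Col+INA can come from that 1 library.

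Another scaling shifts every log2 ratio of a comparison by the same amount. Over loci with a mean of at least 10 reads, the median log2 ratio of Col+INA over Col was 0.18 with totals as the base and 0.04 after trimmed-mean (TMM) scaling, and that of *hac1/5*+INA over Col+INA was 0.13 and 0.02. With DESeq2 size factors, 11.5% of all loci were called higher and 10.7% lower in Col+INA over Col, and 2.73% higher and 6.70% lower in *hac1/5*+INA over Col+INA. The members then had 5 called higher and 17 lower in Col+INA over Col, and 2 higher and 13 lower in *hac1/5*+INA over Col+INA. In all, 32 of the 41 members (78.0%) were called in at least 1 comparison and 9 in none, beside 31.8% of the 22183 loci called in at least 1. Among loci with at least 100 reads in a library, 16 of 17 members were called in at least 1 comparison (94.1%), beside 48.1% of all such loci.

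**Figure D1:**
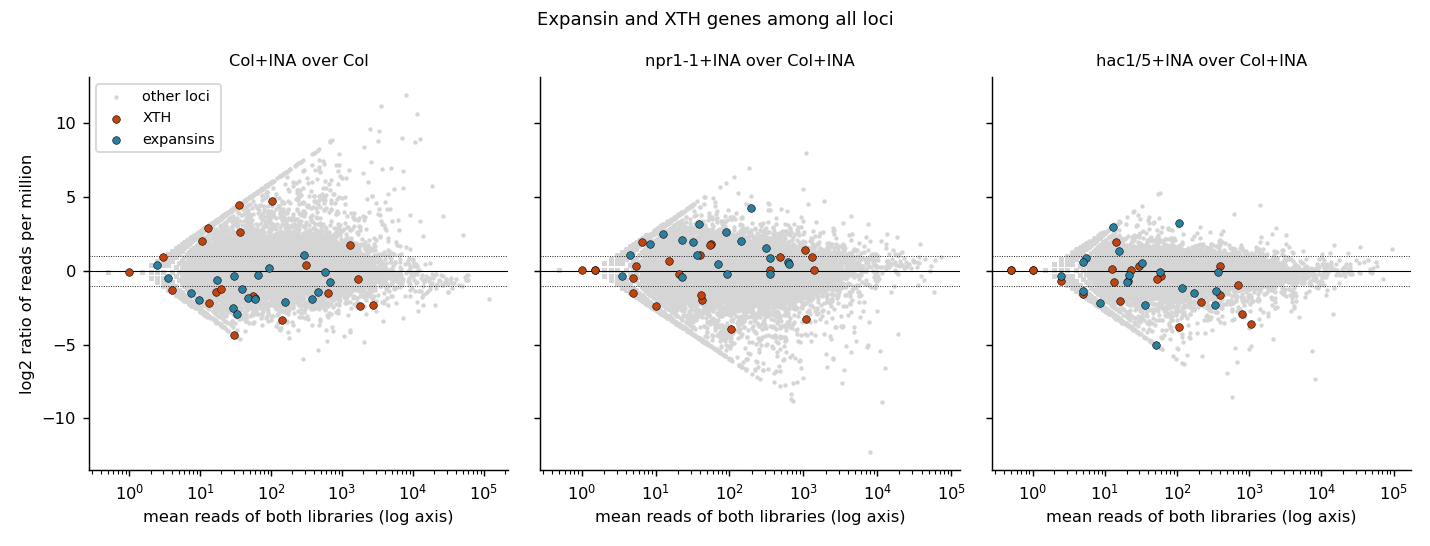
Expansin (blue) and XTH (orange) genes among all loci (grey) in the 3 comparisons: mean reads of the 2 libraries (x axis, log scale) against the log2 ratio of CPM (y axis), with dotted lines at 2-fold. The members lie mostly below 0 in Col+INA over Col (median -1.23) and in *hac1/5*+INA over Col+INA (median -0.58), and mostly above it in *npr1-1*+INA over Col+INA (median 0.60).

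Alpha-expansins are the best studied wall-loosening expansins, and 8 of them are described first. *EXPA6*, the alpha-expansin with the highest mean level, had 191 reads in *hac1/5*+INA, 723 in *npr1-1*+INA, 508 in Col+INA and 836 in Col. *EXPA4*, next in level, had 110 reads in *hac1/5*+INA, 719 in *npr1-1*+INA, 567 in Col+INA and 584 in Col. Both were lowest in *hac1/5*+INA, where *EXPA6* was 2.58-fold below Col+INA (ratio 0.387, with a 95% confidence interval of 0.326 to 0.458) and *EXPA4* 5.01-fold lower (interval of the ratio 0.161 to 0.245). *EXPA4* was close in Col+INA and Col (ratio 0.940, 0.836 to 1.06), and neither gene was called there or in *npr1-1*+INA over Col+INA, where the ratios were 1.52 for *EXPA6* and 1.35 for *EXPA4*.

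*EXPA5*, a growth-promoting expansin linked to brassinosteroids, had 89 reads in *hac1/5*+INA, 447 in *npr1-1*+INA, 260 in Col+INA and 666 in Col. *EXPA11* had 70 reads in *hac1/5*+INA, 456 in *npr1-1*+INA, 163 in Col+INA and 587 in Col. The 4 libraries stood in the same order for both genes, *hac1/5*+INA lowest and Col highest. *EXPA5* was 2.65-fold below Col in Col+INA (ratio 0.378, 0.326 to 0.437) and 2.84-fold below Col+INA in *hac1/5*+INA (ratio 0.352, 0.274 to 0.450). Its ratio of 1.83 in *npr1-1*+INA over Col+INA fell short of 2-fold. *EXPA11* was 3.72-fold below Col in Col+INA (ratio 0.269, 0.225 to 0.320), 2.98-fold above Col+INA in *npr1-1*+INA (2.49 to 3.59) and 2.26-fold below Col+INA in *hac1/5*+INA (ratio 0.442, 0.329 to 0.588).

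*EXPA16* and *EXPA15* separated the conditions in another way. *EXPA16* had 55 reads in *hac1/5*+INA, 228 in *npr1-1*+INA, 60 in Col+INA and 253 in Col. *EXPA15* had 15 reads in *hac1/5*+INA, 154 in *npr1-1*+INA, 26 in Col+INA and 93 in Col. For both, *hac1/5*+INA and Col+INA were the low pair, with ratios of 0.943 (0.642 to 1.38) for *EXPA16* and 0.594 (0.292 to 1.16) for *EXPA15* that were not called. *EXPA16* was 4.35-fold lower and *EXPA15* 3.69-fold below Col in Col+INA, and *EXPA16* was 4.05-fold and *EXPA15* 6.32-fold above Col+INA in *npr1-1*+INA.

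*EXPA10*, an expansin known for its part in leaf growth (chr1:9259605-9261313, forward strand, TAIR10), stood high in both mutants. It had 190 reads in *hac1/5*+INA, 371 in *npr1-1*+INA, 21 in Col+INA and 74 in Col, so the mutant libraries were above both wild-type libraries. It was 3.64-fold below Col in Col+INA (ratio 0.275, 0.161 to 0.451). Over Col+INA it was 18.8-fold higher in *npr1-1*+INA (12.1 to 30.8) and 9.31-fold higher in *hac1/5*+INA (5.92 to 15.4). *EXPA8* was the only alpha-expansin called higher with INA in wild type: it had 356 reads in *hac1/5*+INA, 324 in *npr1-1*+INA, 394 in Col+INA and 184 in Col. Its 3 INA libraries lay close together above Col, with a ratio of 2.07 in Col+INA over Col (1.74 to 2.48), 0.877 in *npr1-1*+INA over Col+INA (0.755 to 1.02) and 0.930 in *hac1/5*+INA over Col+INA (0.803 to 1.08). The call of *EXPA8* rests on the scaling, since its log2 ratio of 1.05 became 0.91 with TMM and 0.90 with DESeq2 size factors, below the 2-fold line.

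**Figure D2:**
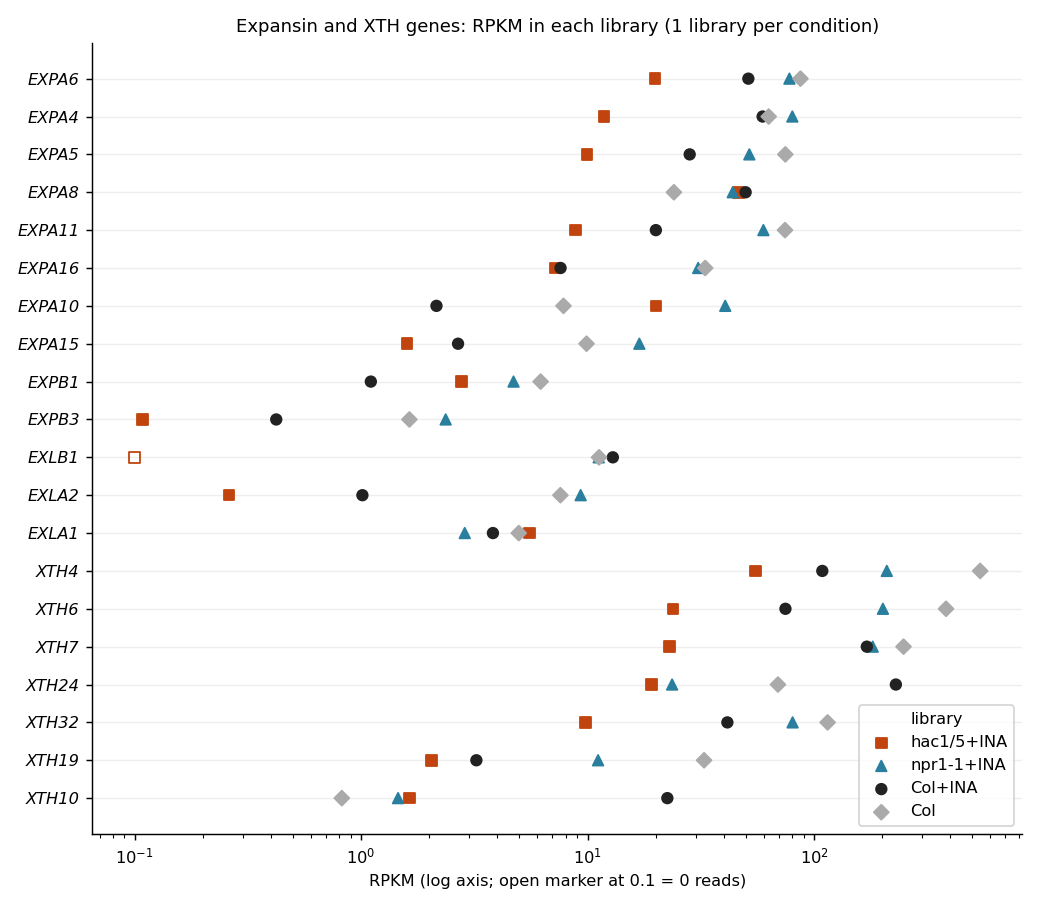
RPKM (x axis, log scale) of the genes described by their values in *hac1/5*+INA (orange squares), *npr1-1*+INA (blue triangles), Col+INA (black circles) and Col (grey diamonds), 1 library each; the open square marks *EXLB1* at 0 reads. Orange squares stand left of the black circles for most genes, with *EXPA10*, *EXPB1* and *EXLA1* among the exceptions, while the black circle of *XTH10* stands alone at 22.5 RPKM.

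Over the family, 1 of 14 EXPA genes was called higher and 6 lower in Col+INA over Col, beside 13.9% and 8.49% of all loci. In *npr1-1*+INA over Col+INA 6 were called higher and 0 lower, beside 10.7% and 13.1%, and in *hac1/5*+INA over Col+INA 2 higher and 5 lower, beside 3.81% and 5.79%. The remaining EXPA genes had at most 78 reads in any library, and those named here were picked after their values were seen. *EXPA13* had 19 reads in *hac1/5*+INA, 48 in *npr1-1*+INA, 24 in Col+INA and 55 in Col, and was called lower with INA in wild type and higher in *npr1-1*+INA. *EXPA9* had 12, 78, 61 and 70 reads in the same order and was called only in *hac1/5*+INA over Col+INA, at 4.94-fold lower. *EXPA14*, with 3, 51, 14 and 21 reads, was called only in *npr1-1*+INA, at 3.89-fold higher. *EXPA1*, known from guard cells, had 23, 6, 3 and 4 reads and was called only in *hac1/5*+INA, with a ratio of 7.89 and a counting interval of 2.38 to 41.0. *EXPA20* had 4 to 13 reads and *EXPA21* 1 to 6, and neither was called.

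The beta-expansins and expansin-like genes were weakly expressed. *EXPB1* had 22 reads in *hac1/5*+INA, 36 in *npr1-1*+INA, 9 in Col+INA and 49 in Col. It was 5.62-fold below Col in Col+INA (ratio 0.178, 0.0768 to 0.366) and 4.27-fold above Col+INA in *npr1-1*+INA (2.02 to 10.1), while its ratio of 2.52 in *hac1/5*+INA (1.11 to 6.21) was not called. *EXPB3* had 1 read in *hac1/5*+INA, 21 in *npr1-1*+INA, 4 in Col+INA and 15 in Col, and was called only in *npr1-1*+INA, at 5.60-fold higher (1.89 to 22.4). *EXLA2*, whose Arabidopsis mutant has been studied for its response to a necrotrophic fungus, had 2 reads in *hac1/5*+INA, 69 in *npr1-1*+INA, 8 in Col+INA and 58 in Col. It was 7.49-fold below Col in Col+INA (ratio 0.134, 0.0551 to 0.281) and 9.20-fold above Col+INA in *npr1-1*+INA (4.42 to 22.2). Its relative *EXLA1* had 38 reads in *hac1/5*+INA, 19 in *npr1-1*+INA, 27 in Col+INA and 34 in Col and was called in no comparison, with ratios of 0.769 (0.446 to 1.31) in Col+INA over Col, 0.751 (0.395 to 1.40) in *npr1-1*+INA and 1.45 (0.861 to 2.47) in *hac1/5*+INA. *EXLB1*, the single expansin-like B gene of Arabidopsis (chr4:9581586-9583290, reverse strand), was not found in 1 library: it had 0 reads in *hac1/5*+INA, 82 in *npr1-1*+INA, 101 in Col+INA and 85 in Col. With its 0 reads set to 3, the level in Col+INA was 32.7 times that of the double mutant, a value set by this floor. On the reads as counted, the ratio of *hac1/5*+INA over Col+INA had a counting interval of 0 to 0.0383 (FDR 5.94e-29 in the exact test). The other 3 libraries did not differ by the call rule (ratio 1.15 in Col+INA over Col and 0.866 in *npr1-1*+INA over Col+INA).

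**Figure D3:**
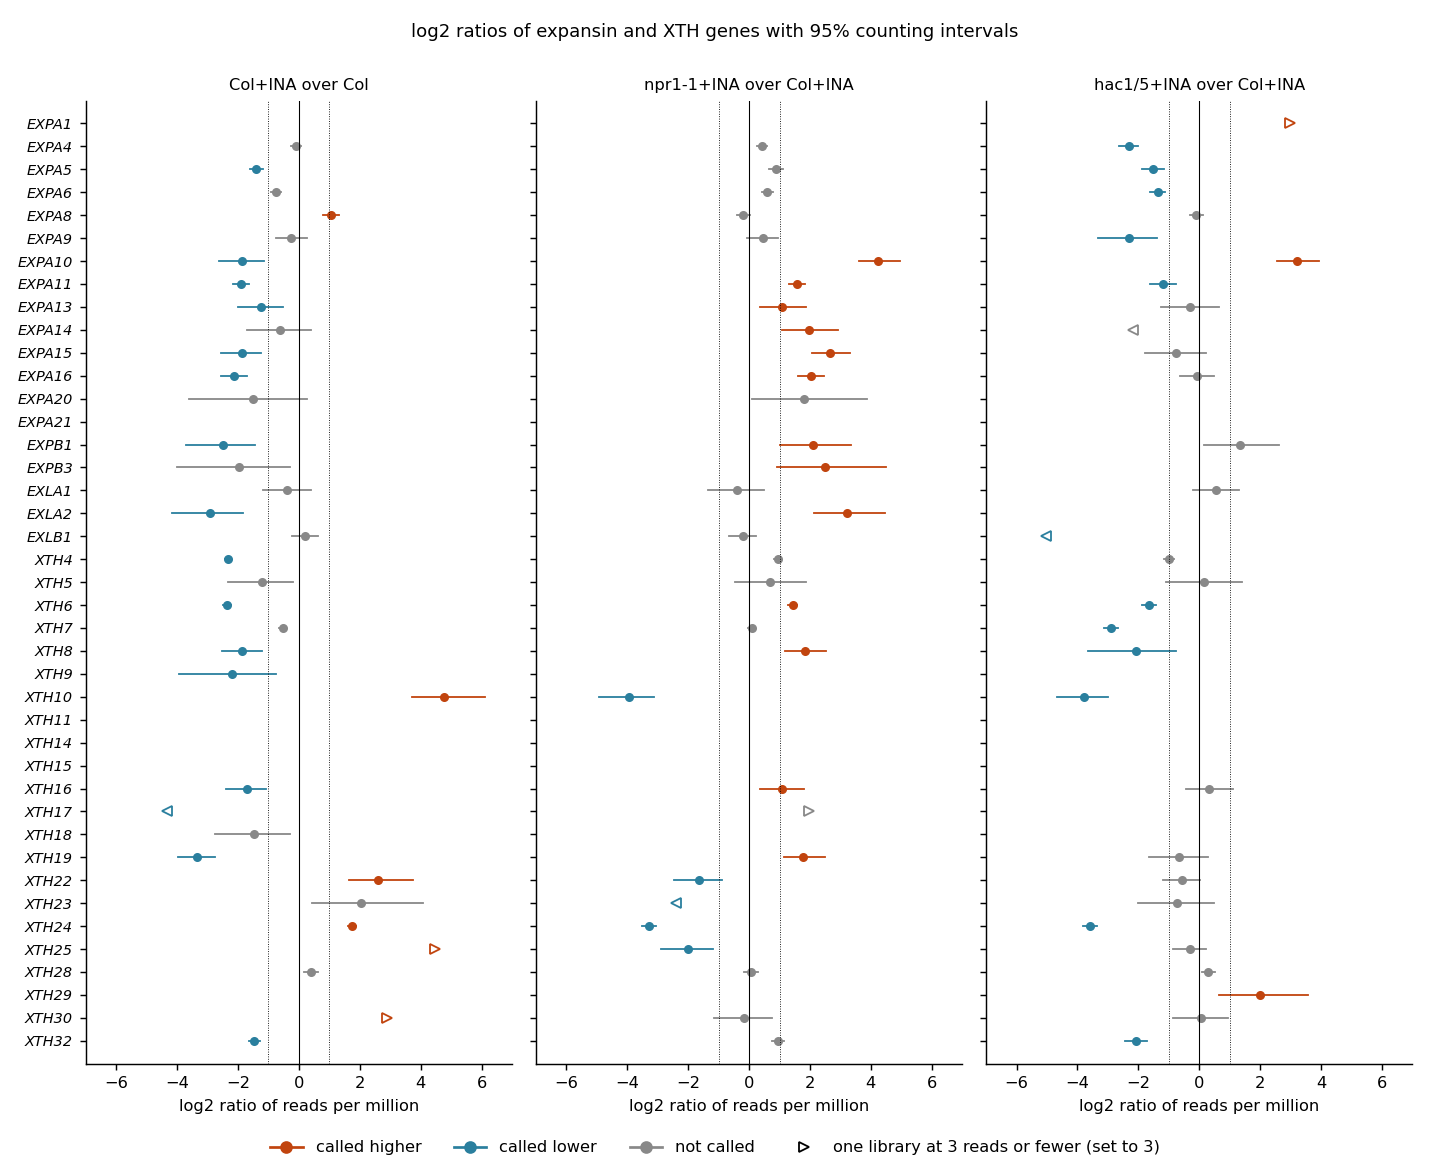
log2 ratio of CPM (x axis) of each expansin and XTH gene in the 3 comparisons, with 95% counting intervals as bars; orange marks genes called higher, blue those called lower, grey those not called, dotted lines 2-fold and open triangles a library at 3 reads or fewer. Positions are blank where both libraries of a comparison had fewer than 10 reads. The open blue triangle at -5.03 is *EXLB1*, and *XTH10* stands at 4.78, -3.95 and -3.78.

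Of the 22 XTH genes, 5 were called higher and 8 lower in Col+INA over Col (all loci 13.9% and 8.49%), 4 higher and 5 lower in *npr1-1*+INA over Col+INA (all loci 10.7% and 13.1%), and 1 higher and 6 lower in *hac1/5*+INA over Col+INA (all loci 3.81% and 5.79%). The members with the highest mean level were *XTH4*, *XTH6* and *XTH7*. *XTH4* (chr2:2763526-2765720, forward strand), an endotransglucosylase gene known from growing tissues, stood at 55.2 RPKM in *hac1/5*+INA, 210 in *npr1-1*+INA, 109 in Col+INA and 542 in Col, from 465, 1705, 944 and 4552 reads. *XTH6* (chr5:26299032-26300478, forward strand) stood at 23.9 RPKM in *hac1/5*+INA, 202 in *npr1-1*+INA, 74.8 in Col+INA and 383 in Col, from 185, 1505, 596 and 2954 reads. Both were highest in Col and lowest in *hac1/5*+INA. *XTH4* was 4.98-fold below Col in Col+INA (ratio 0.201, 0.187 to 0.215) and *XTH6* 5.12-fold lower (ratio 0.195, 0.179 to 0.213). *XTH6* was also 2.69-fold above Col+INA in *npr1-1*+INA (2.45 to 2.97) and 3.13-fold below Col+INA in *hac1/5*+INA (ratio 0.319, 0.269 to 0.377). *XTH4* stopped just short of 2-fold in both mutants, at a ratio of 1.93 (1.78 to 2.09) in *npr1-1*+INA and 0.507 (0.453 to 0.567) in *hac1/5*+INA. With DESeq2 size factors it passed in *npr1-1*+INA (log2 ratio 1.00), and with TMM or DESeq2 scaling in *hac1/5*+INA (log2 ratios -1.09 and -1.10).

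*XTH7* (chr4:17775474-17777397, reverse strand) was called in *hac1/5*+INA over Col+INA and in neither other comparison. It had 181 reads in *hac1/5*+INA, 1382 in *npr1-1*+INA, 1389 in Col+INA and 1954 in Col. Its ratio in *npr1-1*+INA over Col+INA was 1.06 (0.985 to 1.14), within counting error, and Col+INA stood at 0.688 of Col (0.642 to 0.738), short of a call. In *hac1/5*+INA it was 7.46-fold lower than in Col+INA (ratio 0.134, 0.114 to 0.157, FDR 4.78e-221 in the exact test). *XTH32* (chr2:15472645-15474681, reverse strand), of the small XTH group in which hydrolase activity is known, had 80 reads in *hac1/5*+INA, 633 in *npr1-1*+INA, 348 in Col+INA and 934 in Col. It was 2.77-fold below Col in Col+INA (ratio 0.361, 0.318 to 0.409) and 4.23-fold below Col+INA in *hac1/5*+INA (ratio 0.237, 0.183 to 0.302). Its ratio of 1.94 in *npr1-1*+INA (1.70 to 2.22) was not called, and passed with TMM scaling at a log2 ratio of 1.01.

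*XTH19*, mostly known from roots, had 16 reads in *hac1/5*+INA, 84 in *npr1-1*+INA, 26 in Col+INA and 255 in Col. It was 10.1-fold below Col in Col+INA (ratio 0.0987, 0.0633 to 0.148) and 3.45-fold above Col+INA in *npr1-1*+INA (2.20 to 5.58), while *hac1/5*+INA over Col+INA gave 0.633 (0.317 to 1.23) and no call. Its close relatives on chromosome 4 lie next to it, *XTH18* at 1664 bases and *XTH24* a further 5215 bases away, all on the reverse strand. The counting of reads that match more than 1 gene model is not given in the sources used here, so reads may be shared between such neighbors. *XTH18* had 1 to 24 reads and was not called. *XTH17*, another root XTH named after its values were seen, had 0 reads in *hac1/5*+INA, 11 in *npr1-1*+INA, 2 in Col+INA and 59 in Col, a ratio of 0.0328 in Col+INA over Col on the reads as counted, with an interval of 0.00388 to 0.124, and of 0.0492 with the 2 reads set to 3.

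A smaller set of XTH genes was higher with INA in wild type. *XTH24* (also *MERI5B*, chr4:14819192-14820592, reverse strand), a gene first found in the meristem and also used as a senescence marker, stood at 19.2 RPKM in *hac1/5*+INA, 23.6 in *npr1-1*+INA, 230 in Col+INA and 69.3 in Col, from 161, 191, 1983 and 579 reads. The Col+INA library was the highest, and both mutants with INA stood below water-treated Col. *XTH24* was 3.32-fold above Col in Col+INA (3.02 to 3.64), 9.73-fold below Col+INA in *npr1-1*+INA (ratio 0.103, 0.0881 to 0.119) and 12.0-fold below Col+INA in *hac1/5*+INA (ratio 0.0836, 0.0707 to 0.0982).

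*XTH10* had 14 reads in *hac1/5*+INA, 12 in *npr1-1*+INA, 198 in Col+INA and 7 in Col, so Col+INA alone was high. It was 27.4-fold above Col in Col+INA (13.0 to 69.0), 15.5-fold below Col+INA in *npr1-1*+INA (ratio 0.0647, 0.0329 to 0.116) and 13.7-fold below Col+INA in *hac1/5*+INA (ratio 0.0728, 0.0391 to 0.125). Its neighbor on chromosome 2 is *PR1*, the pathogenesis-related gene most used as a marker of salicylic acid signaling. *PR1* (chr2:6241704-6242463, reverse strand) and *XTH10* (chr2:6244781-6246233, forward strand) point away from each other and their gene models are 2317 bases apart. *PR1* had 96 reads in *hac1/5*+INA, 2 in *npr1-1*+INA, 16158 in Col+INA and 4 in Col. Both genes were thus highest in Col+INA by far, and *PR1* was far more abundant there. Whether reads beyond the *PR1* gene model contribute to those on *XTH10* was not tested.

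**Figure D4:**
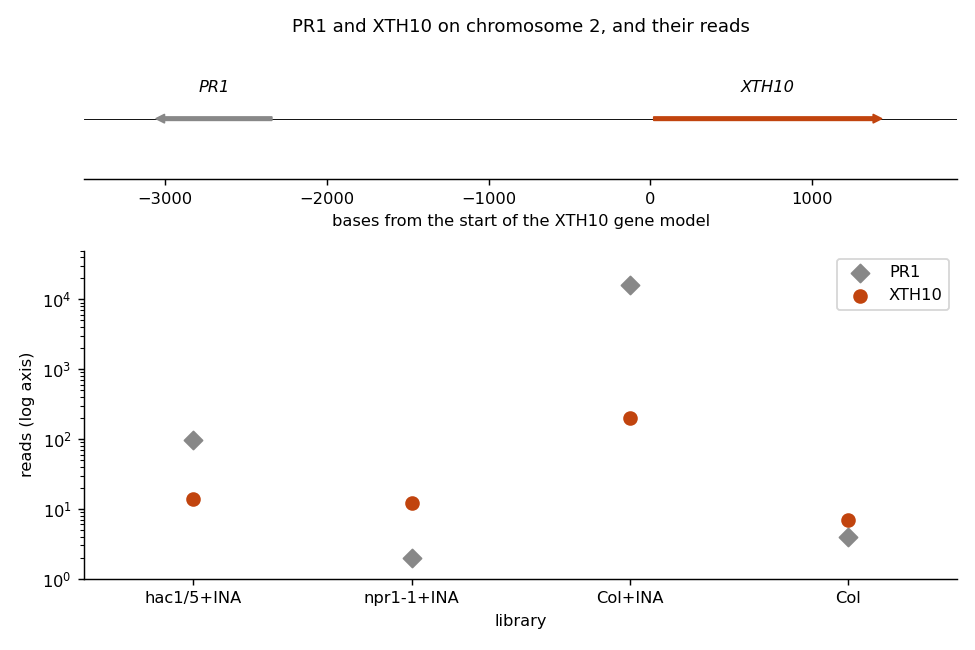
Upper panel: *PR1* and *XTH10* drawn to scale as arrows in the direction of transcription, x axis in bases from the start of the *XTH10* gene model. Lower panel: reads (y axis, log scale) of *PR1* (grey diamonds) and *XTH10* (orange circles) in the 4 libraries, with *XTH10* at 198 and *PR1* at 16158 reads in Col+INA.

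*XTH22* and *XTH25*, named after their values were seen, lie 708 bases apart on chromosome 5, both on the reverse strand. *XTH22* (*TCH4*, chr5:23307130-23308282), the touch-induced endotransglucosylase gene, had 41 reads in *hac1/5*+INA, 19 in *npr1-1*+INA, 63 in Col+INA and 10 in Col. *XTH25* (chr5:23304888-23306421) had 53 reads in *hac1/5*+INA, 16 in *npr1-1*+INA, 68 in Col+INA and 2 in Col. For both, Col+INA and *hac1/5*+INA were the high pair, unlike *XTH10* and *XTH24*. *XTH22* was 6.10-fold above Col in Col+INA (3.11 to 13.3) and *XTH25*, with 2 reads in Col, had a ratio of 32.9 on the reads as counted, with a counting interval of 8.77 to 277, and of 21.9 with those 2 reads set to 3. In *npr1-1*+INA, *XTH22* was 3.11-fold and *XTH25* 3.98-fold lower than in Col+INA, while *hac1/5*+INA over Col+INA gave 0.670 (0.441 to 1.01) for *XTH22* and 0.802 (0.549 to 1.17) for *XTH25*, neither called.

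The upstream windows of *XTH10*, *XTH25* and *XTH22*, higher with INA, are shown with those of *XTH4* and *XTH6*, the most abundant genes lower with INA. They serve as examples from genes of 1 family that moved in opposite directions, and the windows were not aligned to each other. Each window holds the 250 bases before the gene start annotated by RefSeq (assembly TAIR10.1), read 5′ to 3′ on the strand of the gene. The gene models of the files start further in than RefSeq's, by 9 bases for *XTH10*, 19 for *XTH25*, 398 for *XTH22*, 77 for *XTH4* and 304 for *XTH6*, so the windows are not the bases next to the files' own starts. Capitals mark matches, on either strand, to TGACG (bound by TGA factors, the partners of *NPR1*), TTGAC (the core of the W-box of WRKY factors), CACGTG (the G-box) and CGTGTG or CGTGCG (bound by the brassinosteroid-activated factor BZR1). The windows are chr2:6244522-6244771 (forward) for *XTH10*, chr5:23306441-23306690 (reverse) for *XTH25*, chr5:23308681-23308930 (reverse) for *XTH22*, chr2:2763199-2763448 (forward) for *XTH4* and chr5:26298478-26298727 (forward) for *XTH6*.
XTH10: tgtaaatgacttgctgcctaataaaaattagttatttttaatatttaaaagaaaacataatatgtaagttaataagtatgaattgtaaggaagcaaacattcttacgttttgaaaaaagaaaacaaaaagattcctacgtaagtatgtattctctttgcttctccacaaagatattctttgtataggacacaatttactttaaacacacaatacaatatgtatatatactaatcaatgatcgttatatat
XTH25: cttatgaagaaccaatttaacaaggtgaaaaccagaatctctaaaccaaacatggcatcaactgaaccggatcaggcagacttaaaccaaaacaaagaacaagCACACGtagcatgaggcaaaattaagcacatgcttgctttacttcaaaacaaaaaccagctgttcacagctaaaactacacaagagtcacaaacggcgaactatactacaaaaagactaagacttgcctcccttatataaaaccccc
XTH22: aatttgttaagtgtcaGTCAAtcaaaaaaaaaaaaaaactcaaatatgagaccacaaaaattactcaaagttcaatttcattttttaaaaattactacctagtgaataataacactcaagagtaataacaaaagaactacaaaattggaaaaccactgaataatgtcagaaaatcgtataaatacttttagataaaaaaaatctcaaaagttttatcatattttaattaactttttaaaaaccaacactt
XTH4: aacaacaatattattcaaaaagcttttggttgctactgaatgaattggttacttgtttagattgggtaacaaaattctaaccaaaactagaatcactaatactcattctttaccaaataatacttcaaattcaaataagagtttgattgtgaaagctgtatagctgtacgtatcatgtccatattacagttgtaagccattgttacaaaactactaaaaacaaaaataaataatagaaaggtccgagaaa
XTH6: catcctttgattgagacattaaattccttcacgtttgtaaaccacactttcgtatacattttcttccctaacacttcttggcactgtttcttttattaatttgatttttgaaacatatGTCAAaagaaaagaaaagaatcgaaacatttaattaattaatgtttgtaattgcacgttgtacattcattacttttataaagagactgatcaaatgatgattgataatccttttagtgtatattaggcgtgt
*XTH10* and *XTH4* held none of these motifs in the window, *XTH25* held 1 CGTGTG and *XTH22* and *XTH6* 1 TTGAC each, all on the opposite strand.

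Over all members, matches were counted on both strands in windows of the same length. TGACG was found in 4 of 41 windows (9.76%), against 18.6% of 27443 RefSeq gene windows. TTGAC, which overlaps TGACG in the run TTGACG, was found in 16 (39.0%), against 44.9% of all windows. CACGTG was found in 0 of 41, against 6.49%, CGTGTG in 6 (14.6%), against 5.37%, and CGTGCG in 1 (2.44%), against 1.57%. The TATA-box core TATAAA was found in 21 (51.2%), against 47.4%. Of the 6 members called higher in Col+INA over Col, 0 held TGACG, 3 held TTGAC and 1 held CGTGTG. Of the 16 called lower, 1 held TGACG, 4 held TTGAC and 2 held CGTGTG. A match here is a run of letters and not a shown binding site.

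Of the other XTH genes, those named here were chosen after their values were seen. *XTH30* had 23 reads in *hac1/5*+INA, 19 in *npr1-1*+INA, 23 in Col+INA and 3 in Col, a ratio of 7.42 in Col+INA over Col with an interval of 2.24 to 38.6, so all 3 INA libraries stood above Col. *XTH23* had 10, 3, 17 and 4 reads in the same order and was called only in *npr1-1*+INA over Col+INA (ratio 0.188, 0.0354 to 0.651). *XTH29*, with 23, 4, 6 and 0 reads, was the only XTH gene called higher in *hac1/5*+INA over Col+INA, at 3.95-fold. *XTH8* (6, 86, 26 and 91 reads) was called lower with INA in wild type, higher in *npr1-1*+INA and lower in *hac1/5*+INA. *XTH16* (33, 53, 27 and 86 reads) was called lower with INA in wild type and higher in *npr1-1*+INA, and *XTH9* (0, 6, 5 and 22 reads) only lower with INA in wild type. *XTH28*, a gene known from stamen filaments, was called in no comparison: it had 434 reads in *hac1/5*+INA, 355 in *npr1-1*+INA, 363 in Col+INA and 266 in Col, with ratios of 1.32 in Col+INA over Col, 1.04 in *npr1-1*+INA and 1.23 in *hac1/5*+INA. *XTH5* had 12 to 27 reads and no call. *EXPA21*, *XTH11*, *XTH14* and *XTH15* had fewer than 10 reads in every library, and *XTH11* had none in Col+INA or Col.

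The description rule missed 4 genes of these families that the files list by symbol or under another description, and they are given apart from the counts above. *XTH31*, a relative of *XTH32* with hydrolase activity, had 9 reads in *hac1/5*+INA, 1325 in *npr1-1*+INA, 159 in Col+INA and 2444 in Col. It was 15.9-fold below Col in Col+INA, 8.89-fold above Col+INA in *npr1-1*+INA and 17.2-fold below Col+INA in *hac1/5*+INA. *EXPA3* had 13 reads in *hac1/5*+INA, 233 in *npr1-1*+INA, 81 in Col+INA and 263 in Col, with 3.35-fold lower, 3.07-fold higher and 6.05-fold lower levels in the same 3 comparisons. *XTH27* had 1148 reads in *hac1/5*+INA, 991 in *npr1-1*+INA, 1597 in Col+INA and 1270 in Col and was not called, and *XTH33* had at most 2 reads. With these 4 added there were 45 family genes. In Col+INA over Col 6 were called higher and 18 lower, beside 13.9% and 8.49% of all loci. In *npr1-1*+INA over Col+INA 15 were called higher and 5 lower, beside 10.7% and 13.1%. In *hac1/5*+INA over Col+INA 3 were called higher and 14 lower, beside 3.81% and 5.79%.

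Other genes of the wall were counted in the same way. The shares of all loci to set beside these counts are 13.9% higher and 8.49% lower in Col+INA over Col, 10.7% and 13.1% in *npr1-1*+INA over Col+INA, and 3.81% and 5.79% in *hac1/5*+INA over Col+INA. Of the genes that make xyloglucan, 11 were tested: 0 were called higher and 2 lower in Col+INA over Col (median log2 ratio -0.46), 2 higher and 0 lower in *npr1-1*+INA over Col+INA (0.09), and 1 higher and 0 lower in *hac1/5*+INA over Col+INA (0.12). The median of -0.46 is the value of *CSLC12*, with 4 reads in Col and 1 in Col+INA. The median of 0.09 equals the log2 ratio of a locus with at most 3 reads in both libraries. *CSLC5*, a glucan synthase of the xyloglucan backbone that was not named by rule, had 121 reads in *hac1/5*+INA, 673 in *npr1-1*+INA, 137 in Col+INA and 722 in Col. Other genes of this list differed from it. *MUR3* had a ratio of 1.60 in Col+INA over Col and 0.614 in *npr1-1*+INA over Col+INA, neither called. The gene called higher in *hac1/5*+INA over Col+INA was *CSLC4*, with a ratio of 2.07. All 3 genes that trim xyloglucan side chains were called lower in Col+INA over Col and higher in *npr1-1*+INA over Col+INA, and none was called in *hac1/5*+INA over Col+INA by the exact test or with TMM or DESeq2 scaling (medians -1.21, 1.56 and 0.28). The xylosidase gene *XYL1* had 945 reads in *hac1/5*+INA, 2572 in *npr1-1*+INA, 689 in Col+INA and 1548 in Col, 2.32-fold below Col in Col+INA and 3.98-fold above Col+INA in *npr1-1*+INA.

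Among endo-1,4-beta-glucanases, which cut glucan chains, 0 of 20 tested were called higher and 8 lower in Col+INA over Col (median -1.25), 8 of 18 higher and 0 lower in *npr1-1*+INA over Col+INA (0.46), and 1 of 18 higher and 3 lower in *hac1/5*+INA over Col+INA (0.04), *EXPA3* being 1 of this list by its description. In the cellulose synthase superfamily, 2 of 25 were called higher and 8 lower in Col+INA over Col (-0.81), 10 of 26 higher and 1 lower in *npr1-1*+INA over Col+INA (0.80), and 1 of 26 higher and 4 lower in *hac1/5*+INA over Col+INA (-0.03). Of the pectin enzymes, 57 of whose 117 listed loci were described as inhibitors, 7 of 106 were called higher and 27 lower in Col+INA over Col (-0.27), 28 of 107 higher and 7 lower in *npr1-1*+INA over Col+INA (0.32), and 6 of 107 higher and 17 lower in *hac1/5*+INA over Col+INA (0.04), the 6 being 5.61% of those tested. Arabinogalactan proteins, glycoproteins of the wall and cell surface, had 4 of 43 called higher and 18 lower in Col+INA over Col (-0.49), 15 of 43 higher and 5 lower in *npr1-1*+INA over Col+INA (0.77), and 2 of 42 higher and 11 lower in *hac1/5*+INA over Col+INA (-0.53). The medians of 0.04 for the glucanases and the pectin enzymes equal the log2 ratio of a locus with at most 3 reads in both libraries. They therefore reflect genes with few or no reads.

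**Figure D5:**
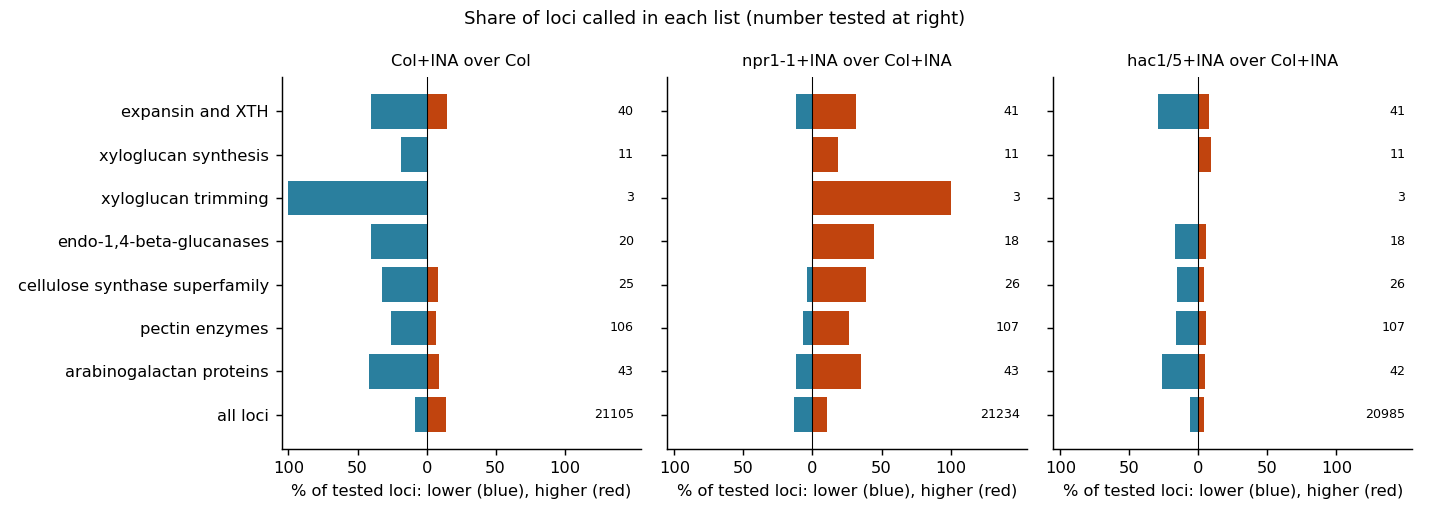
Share of tested loci (x axis, %) called lower (blue, left) and higher (red, right) in each list of wall genes and over all loci, with the number tested at the right of each panel. Expansin and XTH genes reach 40.0% lower in Col+INA over Col and 29.3% lower in *hac1/5*+INA over Col+INA, beside 8.49% and 5.79% of all loci.

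Brassinosteroids are growth hormones that raise many expansin and XTH genes. Of 4 synthesis genes tested, 1 was called higher and 0 lower in Col+INA over Col (median log2 ratio 0.62), 0 higher and 1 lower in *npr1-1*+INA over Col+INA (-0.36), and 0 higher and 2 lower in *hac1/5*+INA over Col+INA (-0.93). The synthesis genes *CPD* and *BR6OX1* had also been chosen but were not among the loci listed. *CYP85A2*, which makes the last step to brassinolide, had 69 reads in *hac1/5*+INA, 400 in *npr1-1*+INA, 669 in Col+INA and 265 in Col, 2.44-fold above Col in Col+INA and 9.42-fold below Col+INA in *hac1/5*+INA. *ROT3*, an earlier enzyme of the pathway, had 26 reads in *hac1/5*+INA, 38 in *npr1-1*+INA, 92 in Col+INA and 58 in Col, and was called lower in both mutants over Col+INA. Of 4 genes of brassinosteroid signaling and breakdown, 0 were called in any of the 3 comparisons (medians -0.03, -0.25 and -0.90), although TMM or DESeq2 scaling called 1 lower in Col+INA over Col. *BRI1*, the receptor, had 1435 reads in *hac1/5*+INA, 626 in *npr1-1*+INA, 1305 in Col+INA and 815 in Col.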

How the data were processed

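Total RNA of leaves from 3 experiments was combined by the authors for each of 6 conditions, of which 4 were used here, 1 library each, in 3 deposited tables of 2 libraries. The authors aligned reads with SOAPaligner/soap2, allowing 2 mismatches, to the Arabidopsis genome (TAIR10 per the submitters' processing notes), and deposited counts of reads per gene model (not normalized) and RPKM values made from them. RPKM recomputed from the counts differed by at most 4.84e-06. The deposited log2 ratio, p-value and FDR columns hold the authors' own comparisons and were not used. The assignment of reads that match more than 1 gene model, and the strand setting, are not given in the sources used here.

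Each of 22183 loci (25931 gene models) was represented by the model with the most reads. For each pair of libraries a two-sided exact binomial test (SciPy 1.17.1, Python 3.11.15) compared the reads of a model with the library sums, with Benjamini-Hochberg adjustment over all models of the table. Loci were called where the FDR did not exceed 0.01 and the log2 ratio reached 1 in size, the thresholds of the study, with counts under 3 set to 3 for the log2 ratio, and with ratios and exact Clopper-Pearson 95% intervals on the reads as counted. The procedure was run on simulated counts that held counting error only, so that run could not check for variation between plants. The members and the lists of wall and hormone genes were chosen with earlier results of these data known. Members called in a comparison with at least 100 reads in a library, and the 3 of highest mean RPKM in each family, were named by rule. Alternatives were TMM (edgeR 4.0.16, R 4.3.3) and DESeq2 1.42.0 scaling, edgeR's exact test with an assumed variation between libraries, other thresholds, a filter at 10 reads, log2(RPKM + 1) and reads summed over models. Upstream windows start from RefSeq gene starts and came from the RefSeq genome TAIR10.1, in which 20697 of 20790 matched loci (99.6%) lay within the RefSeq gene of the same locus, with a tolerance of 500 bases. The upstream window of 1 further member is not reported here.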

Additional observations from a re-analysis of the deposited data

How the results depend on the processing

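With 1 library per condition the spread between plants is unknown, and the calls depend on what is assumed for it. With edgeR's exact test and an assumed coefficient of variation of 0.4 between libraries, 2 members in place of 6 were called higher and 1 in place of 16 lower in Col+INA over Col. In npr1-1+INA over Col+INA, 1 in place of 13 was called higher and 1 in place of 5 lower, and in hac1/5+INA over Col+INA, 0 in place of 3 higher and 1 in place of 12 lower. Among the members named by rule, those calls were XTH10 (higher in Col+INA over Col, lower in npr1-1+INA over Col+INA), EXPA10 (higher in npr1-1+INA over Col+INA) and EXLB1 (lower in hac1/5+INA over Col+INA). The shares of all loci called fell as well. At this variation they were 1.91% higher and 0.137% lower in Col+INA over Col. They were 0.2025% and 1.51% in npr1-1+INA over Col+INA, and 0.0143% and 0.133% in hac1/5+INA over Col+INA. With a variation of 0.2, 3 members were called lower in npr1-1+INA over Col+INA, beside 7.19% of all loci. In hac1/5+INA over Col+INA 1 was called higher, beside 0.510%, and the other counts of members stayed within 1.5 times. Under every other alternative (TMM, DESeq2 size factors, an FDR of 0.2, a log2 ratio of 1.5, a filter at 10 reads, log2(RPKM + 1), summed gene models) the 6 counts of members stayed within 1.5 times, and no direction reversed. Of 60 values of the members named by rule, 2 gained and 1 lost the call with TMM, 3 gained and 1 lost it with DESeq2 size factors, and 32 lost it with a variation of 0.4. Of 48 counts of the wall and hormone lists, 24 moved by more than 1.5 times with a variation of 0.2 and 29 with 0.4, 17 with a log2 ratio of 1.5, 6 with an FDR of 0.2, 4 each with DESeq2 size factors and log2(RPKM + 1), 3 with TMM, 1 with summed gene models and 0 with the filter at 10 reads. Adding the 4 family genes that the description rule missed was chosen after seeing the data. No paired analysis was possible because each condition has 1 library. Depth limits the weakest members: of the calls listed, 3 of the 6 higher and 9 of the 16 lower in Col+INA over Col had fewer than 100 reads in both libraries.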
